A study of Mus musculus with 18 samples.

Results

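The effect of trichostatin A (TSA), an inhibitor of the zinc-dependent histone deacetylases, was compared between 6 h and 24 h of treatment, as the difference between TSA and control arrays at 24 h minus the same difference at 6 h. This comparison used 12 of the 18 arrays of the series: 2 control and 2 TSA arrays of 6 h, and the control arrays 1 to 4 and TSA arrays 1 to 4 of 24 h. The cells were dissociated neurospheres from the lateral and medial ganglionic eminences of embryonic day 15.5 mice, which the methods name as C57BL/6, plated as an adherent layer in medium with serum so that neurons, astrocytes and oligodendrocytes form. TSA cultures received 50 nM TSA for 6 or 24 h, and the controls of each time received 0 nM TSA. These cultures are mixtures, so fewer cells of a type and less RNA per cell cannot be told apart in any value given here. Whether arrays of the same group came from separate cultures is not given, so errors and p-values measure the spread between these samples, which may be technical.

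Histone deacetylases remove acetyl groups from histone tails and from many other proteins, and their inhibition raises acetylation within a short time. Acetylated histones mark active promoters and enhancers, and inhibition of the enzymes is known to raise some genes and to lower others. In neural precursors, inhibitors of these enzymes are known to block the maturation of oligodendrocytes.

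A group mean of at least 100 in 1 or more of the 4 groups was asked of each probe set, and 18876 of 45101 probe sets, for 10337 named genes, passed. Effects are differences of log2(signal + 32), which understate the change of dim genes, and an effect or a change of the effect is called at a Benjamini-Hochberg adjusted p under 0.05 in the limma fit of the 12 arrays. For each gene the brightest probe set was taken. Genes were sorted into patterns by these calls. A transient gene had a called effect at 6 h, none called at 24 h and a called change. A delayed gene had none called at 6 h, a called effect at 24 h and a called change. A sustained gene had called effects of the same sign at both times, and a reversing gene called effects of opposite sign.

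The deposited array medians lay between 36.4 and 41.6, and no array of the 12 was left out. The control arrays 5 and 6 of 24 h, which were not part of the comparison, stood apart from controls 1 to 4. Mog, a myelin gene, was at 24.7 and 12.4 there and between 264 and 962 in controls 1 to 4. A probe set of Xist lay between 18.4 and 75.5 on the 12 arrays and at 1548 or more in controls 5 and 6. Another lay between 325 and 1875 and at 2791 or more. On the third the lowest of controls 5 and 6 was 23.4, against 66.8 to 375 on the 12 arrays. Whether controls 5 and 6 came from other cultures is not given. Their use in place of controls 1 to 4 is given below for the named genes whose called change it ended and for the lists whose counts it moved most. Microglial markers were dim on all 12 arrays: the highest of the 7 was Tmem119, at 50.3 on its brightest array, while Aif1 and Cx3cr1 stayed under 10. Olig1, Fabp7, Gja1 and Map2, markers of the oligodendrocyte lineage, radial glia, astrocytes and neurons, were all above 2000 on every array. Other markers of these types were dimmer. None of the other neuronal markers reached 2000: Elavl3 was at most at 1679.5, Dcx lay between 31.4 and 1304, and Stmn2 between 11.2 and 469. Enpp6 of the oligodendrocyte lineage lay between 25.2 and 1474.

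The change of the TSA effect from 6 to 24 h was called for 1654 probe sets, 8.76% of those tested, against 24.8% for the effect at 6 h and 30.4% for the effect at 24 h. Among genes, 1073 had a called change, 10.4% of the 10337. In 495 the effect moved upward with time (4.79%) and in 578 downward (5.59%). At 6 h 28.4% of the genes were called, 15.8% higher and 12.6% lower in TSA, and at 24 h 33.7%, 17.5% higher and 16.3% lower. The smallest called change was 0.32 and the median called change 0.99 on the log2 scale, and 807 of the 1654 changes were of at least 2-fold. Just inside the threshold lay Ppp1cb, with a change of 0.48 (adjusted p = 0.04995), and just outside it Sin3b, with 0.39 (adjusted p = 0.0501). After scaling to a common median instead of quantile normalization, the median effect of all probe sets moved to -0.10 at 24 h and to -0.12 for the change, and the share of upward calls went from 48.8% to 34.5% at 24 h and from 45.5% to 28.6% for the change. Upward and downward counts are therefore relative to the quantile-normalized arrays.

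Sustained genes were the most numerous of these patterns, an order that depends on the rules. A transient or delayed gene also needed a called change, and a sustained gene did not. By the called effects alone, 3482 probe sets were delayed and 2425 transient, against 2123 sustained. Of the named genes, 1344 were sustained, 523 transient, 321 delayed and 90 reversing. In probe sets these were 2123, 779, 542 and 134. The transient probe sets were higher at 6 h in 487 cases and lower in 292, the delayed higher at 24 h in 298 and lower in 244. Among the reversing, 86 were higher at 6 h and lower at 24 h, and 48 were lower first and higher later. Of the sustained probe sets 1015 were higher and 1108 lower, with no called change in 1964, an effect that was larger at 24 h in 20 and smaller in 139. A further 1646 probe sets were called at 6 h alone and 2940 at 24 h alone without a called change, so these cannot be counted as different between the times.

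With the replicate number as a block, which the correlation of equally numbered arrays allowed, 4739 changes were called, with 1907 transient, 1485 delayed, 3775 sustained and 541 reversing probe sets. All 1654 changes of the fit without the block remained called. Among the genes named below, the block also called the 6 h effects of B2m, Dkk3 and Nid1, delayed otherwise and sustained with it, and of Gadd45g, Lfng, Phf1 and Ypel2, delayed otherwise and reversing with it. It called the 24 h effects of Arid1a, Arid1b, Bak1 and Nsd1, transient otherwise and sustained with it, and of Bad, Notch1, Spry2 and Thop1, transient otherwise and reversing with it. The 6 h groups hold 2 arrays each, and their loss decided most calls. The number of called changes was 28 without TSA 6 h array 2, 368 without TSA 6 h array 1, 275 and 265 without control 6 h array 1 or 2, 975 without control 24 h array 3 and 1050 without control 24 h array 2. In each of the 12 fits without 1 array, every one of the 1654 changes that was tested kept its direction. Each such fit shares its arrays with the fit that chose the changes, so a kept direction does not test them. Of 35 gene lists with a tested member, 27 held a called change, and 2 did without TSA 6 h array 2, those of the matrix and of metallothioneins and zinc transporters. Of the named genes, the changes of Loxl1, Mast3, Mfsd12, Mmp14, Piga and Slc39a8 stayed called in all 12 of these fits. Probe sets of a gene did not always share the call. The change was called on 1 of 2 tested probe sets for Arap2, Arid1a, Bad, Bmi1, Cdh11, Cplx2 and Dkk3. The same held for Kmt5a, Lfng, Notch1, Pdgfra, Sesn2, Smarca4 and Spred2. The call covered 2 of 3 probe sets for Bptf, Ccnd1 and Mmp14, and 2 of 4 for Gtf2i.

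**Figure D1:**
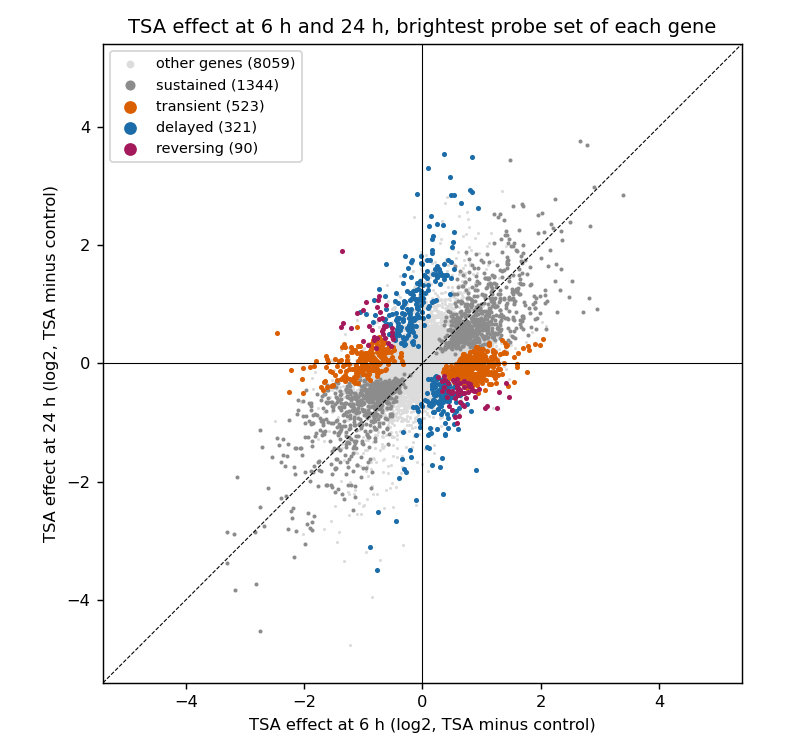
TSA effect at 6 h (x axis) and at 24 h (y axis), each as log2 of TSA minus control, for the brightest probe set of the 10337 tested genes. Transient genes lie along the horizontal line, delayed genes along the vertical line, and the 90 reversing genes in the upper left and lower right, while the 1344 sustained genes scatter around the dashed line of equal effects.

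In which arrays the change took place was read from the group means. Over the 324 genes that were transiently higher, the median difference between 24 h and 6 h was 0.11 among the controls and -0.82 among the TSA arrays, and the TSA arrays moved more than the controls in 295 of them (91.0%). The 199 transiently lower genes had medians of 0.02 in the controls and 1.00 in TSA. For the 186 genes with a delayed rise the medians were 0.27 and 1.52, and for the 135 with a delayed fall 0.12 and -0.77, with the TSA arrays moving more in 85.9%. Over all tested genes TSA moved more in 69.3%, and these shares describe how the patterns were made up, since the patterns were cut from the same values. In the controls, time in culture and any difference in preparation between the 6 h and 24 h arrays cannot be told apart.

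Transient rises included a lysosomal transporter and a peptidase. Mfsd12, which encodes a lysosomal transporter, had signals of 289 and 245 in the controls and 1101 and 1215 in TSA at 6 h. At 24 h it was at 314, 351, 295 and 298 in the controls and 356, 337, 437 and 469 in TSA. The TSA arrays of 6 h stood clear of all others, and those of 24 h overlapped the controls. The effect went from 2.00 to 0.31, a change of -1.69 (standard error 0.21, adjusted p = 0.00356). Thop1, the zinc metallopeptidase thimet oligopeptidase, read 267 and 284 in the 6 h controls against 809 and 919 in TSA, and 132, 152, 177 and 159 against 87.9, 87.0, 148 and 159.9 at 24 h. Its change was -1.86 (standard error 0.29, adjusted p = 0.0079), and with the block its effect at 24 h was called too, with the opposite sign. Mdm1, a microtubule-binding protein of centrioles, was at 66.4 and 43.8 in the controls and 292 and 232 in TSA at 6 h, and all 8 arrays of 24 h lay under 70. Its change was -1.90 (standard error 0.35, adjusted p = 0.0122). Ankrd34b went from 20.1 and 27.3 in the controls to 111 and 128 in TSA at 6 h and was dim at 24 h, at 11.5, 16.3, 12.6 and 15.2 in TSA. The change was -1.83 (standard error 0.25, adjusted p = 0.00528).

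Transient falls included cyclin D1 and a potassium channel. Ccnd1, the cyclin that partners Cdk4 and Cdk6 in G1, had signals of 967 and 726 in the 6 h controls and 169.9 and 91.8 in TSA. At 24 h the controls were at 773, 1096, 542 and 699 and the TSA arrays at 2435, 1011, 615 and 917, so the groups overlapped and TSA array 1 was the highest of all. The effect went from -2.46 to 0.51, a change of 2.97 (standard error 0.62, adjusted p = 0.018), the largest among the transient falls named here. Kcnk2, the background potassium channel TREK-1, read 1273 and 1726 in the 6 h controls and 277 and 424 in TSA, and 2572, 2406, 2404 and 2198 against 1967, 3483, 2437 and 1573 at 24 h. Its effect changed by 1.94 (standard error 0.37, adjusted p = 0.0134). For Arap2, a GTPase-activating protein for Arf GTPases, the pairs were 782 and 1014 in the controls and 204 and 226 in TSA at 6 h, and 1687, 1459, 1181 and 1008 in the controls and 1283, 1715, 1164 and 963 in TSA at 24 h. The change of Arap2 was 1.84 (standard error 0.33, adjusted p = 0.011). Plcd4, a phospholipase C, had an uneven pair of 6 h controls at 288 and 885, with TSA at 62.8 and 111, and a change of 2.11 (standard error 0.53, adjusted p = 0.0339).

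Delayed rises included a metal importer and interferon-induced genes. Slc39a8, the zinc and manganese importer ZIP8, was at 7.05 and 6.38 in the controls and 27.4 and 9.79 in TSA at 6 h. At 24 h the controls read 8.48, 8.21, 19.3 and 15.2 and the TSA arrays 489, 357, 506 and 632, a gap with no overlap. The change was 3.18 (standard error 0.31, adjusted p = 0.00226). Rnase4, a secreted ribonuclease, was under 10 on the 4 arrays of 6 h and on the controls of 24 h, and at 355, 85.7, 317 and 959.5 in TSA at 24 h. Its effect changed by 3.20 (standard error 0.81, adjusted p = 0.0339), with TSA array 2 the lowest. Rtp4, an interferon-induced chaperone of receptor transport, went from 9.32 and 11.0 in TSA at 6 h to 321, 215, 373 and 772 at 24 h, while the controls were at 13.3 and 12.6 and then 34.7, 18.9, 18.4 and 26.2. The change of Rtp4 was 2.96 (standard error 0.49, adjusted p = 0.00875). Trim25, a ubiquitin ligase of antiviral RNA sensing, had 27.9 and 26.1 in TSA at 6 h and 521, 187, 445 and 974 at 24 h, against 10.5 and 10.8 and then 27.4, 6.81, 29.8 and 34.9 in the controls. Its change was 2.68 (standard error 0.63, adjusted p = 0.027).

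**Figure D2:**
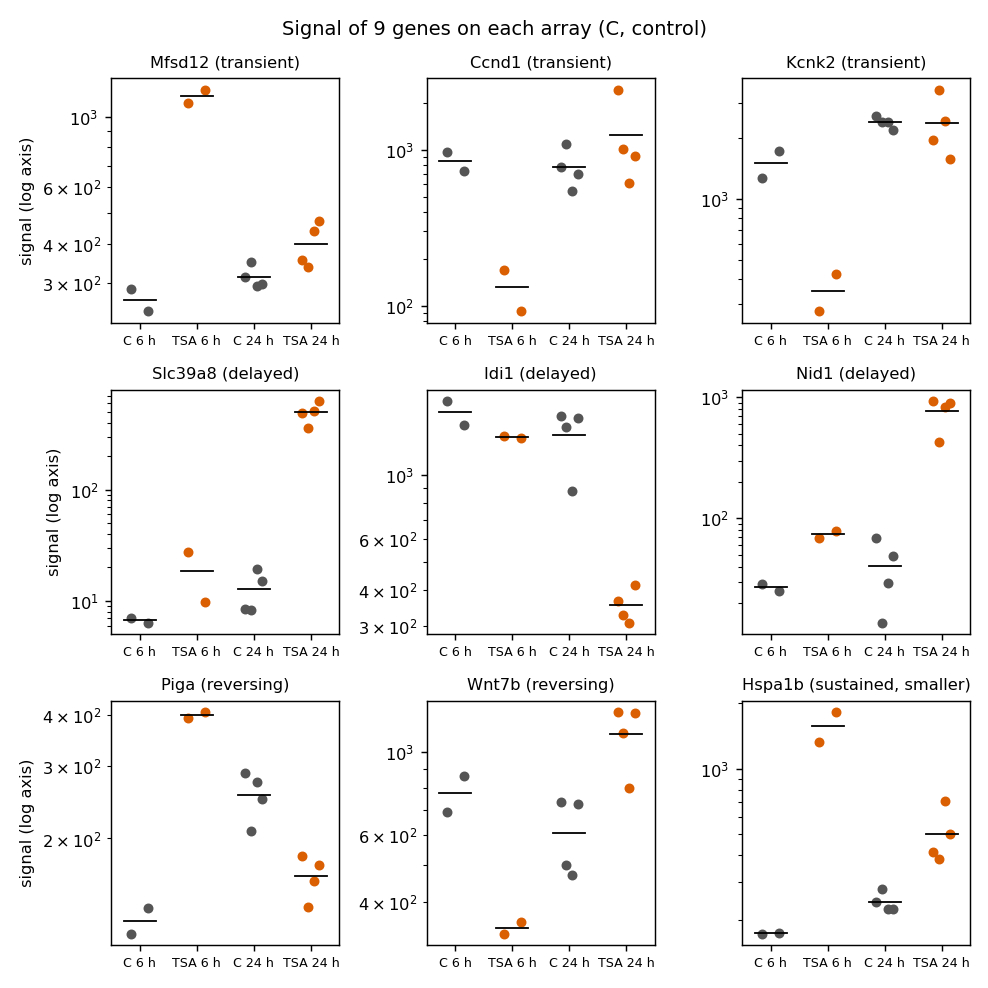
Signals of 9 genes on each of the 12 arrays (y axis, log scale), in controls (grey) and TSA (orange) of 6 h and 24 h, with each group's mean as a line. The TSA effect was called only at 6 h for Mfsd12, Ccnd1 and Kcnk2 and only at 24 h for Slc39a8, Idi1 and Nid1, and TSA lay on opposite sides of the controls of the same time for Piga and Wnt7b. With the replicate block the 6 h effect of Nid1 was called too.

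Genes of the extracellular matrix held the most delayed members of the 37 lists, 8 of them, all higher at 24 h. Of all genes 3.11% were delayed. Of 26 tested members, 3 were called at 6 h, 1 higher and 2 lower, beside 28.4% of all genes called. At 24 h 20 were called, 19 higher and 1 lower, beside 17.5% of all genes higher. The change was called upward in 9 and downward in 0, against 4.79% of all genes called upward, and its median over the list was 0.88, beside -0.02 over all genes. With the block 14 were called upward, and 2 without TSA 6 h array 2. When controls 5 and 6 were used, the change was called in 9, and 14 were higher at 24 h. Nid1, the basement membrane linker nidogen, was at 28.8 and 25.0 in the controls and 68.7 and 78.5 in TSA at 6 h, and at 68.9, 13.8, 29.3 and 48.8 against 936, 427, 831 and 901 at 24 h. Its change was 2.64 (standard error 0.47, adjusted p = 0.0105), and its effect at 6 h was called with the block. Loxl1, an enzyme that crosslinks elastin, read 356 and 344 in the controls and 286 and 296 in TSA at 6 h, and 251, 314, 241 and 269.7 in the controls and 734, 974, 1081 and 779 in TSA at 24 h, with TSA below the controls first and above all of them later. Its effect changed by 1.85 (standard error 0.23, adjusted p = 0.00356), and only the effect at 24 h was called. The fibrillar collagen chain Col5a2 was between 109.6 and 145 on all 4 arrays of 6 h, and 256, 159, 190.2 and 225 in the controls against 836, 623, 553 and 559.6 in TSA at 24 h, a change of 1.46 (standard error 0.28, adjusted p = 0.0137). Delayed rises were also called for the basement membrane collagens Col4a1, with a change of 1.28, and Col4a5, with 1.15, for Col5a1, with 1.06, for fibronectin (Fn1), with 1.32, and for the gelatinase Mmp2, with 1.93. Mmp14, the membrane protease that activates Mmp2, was the exception in pattern: it was at 1269.6 and 1127 in the controls and 347 and 402 in TSA at 6 h and at 872, 947, 1154 and 1189 in the controls and 1090.0, 1109, 1019 and 979.7 in TSA at 24 h, a transient fall with a change of 1.62 (standard error 0.20, adjusted p = 0.00356). Markers of meningeal fibroblasts, which make such proteins, were dim. Col1a1, Dcn and Lum were at most at 32.2 on any array and Col1a2 reached 159, with an effect of -0.28 at 6 h and a called one of 0.57 at 24 h. The summed signal of these 4 markers was 148 to 157 in the controls and 107 to 123 in TSA at 6 h. At 24 h it was 103 to 129 and 157 to 206. It was thus lower in TSA at 6 h, where the matrix list had a median effect of 0.04, and higher at 24 h. At 24 h the mean of Col1a2 was 68.4 in the controls and 118 in TSA. Those of Col1a1, Dcn and Lum were 10.8, 22.5 and 17.8 in the controls and 13.4, 23.9 and 20.7 in TSA. The part of such cells in the matrix result was not tested.

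Enzymes of cholesterol and fatty acid synthesis fell late. At 6 h 0 of the 24 tested members were called in limma, beside 28.4% of all genes. Their median effect was -0.05, and 4 had an unadjusted p under 0.05. At 6 h the block called 2 higher and 2 lower. At 24 h 16 were lower and 0 higher, beside 16.3% of all genes lower, with a median of -0.70 over the list. The change was called downward in 6 and upward in 0, beside 5.59% of all genes, with a median of -0.70. These counts were 13 with the block, 12 against controls 5 and 6, and 0 without TSA 6 h array 2. Idi1, which isomerises isopentenyl diphosphate, was at 1809 and 1488 in the controls and 1361 and 1339 in TSA at 6 h, and at 1598, 1462, 877 and 1581 in the controls and 367, 327, 308 and 415 in TSA at 24 h. Its change was -1.56 (standard error 0.31, adjusted p = 0.0148). Cyp51, the lanosterol demethylase, read 2090.0 and 1667 in the controls and 1657 and 1548 in TSA, then 1671, 1446, 1059 and 1703 in the controls and 422, 461, 536 and 628 in TSA, with a change of -1.24 (standard error 0.28, adjusted p = 0.0248). Acly, the enzyme that supplies cytosolic acetyl-CoA, read 2521 and 2183 in the controls and 2553 and 2556 in TSA, then 1949, 2054, 1509 and 1676 in the controls and 855, 825, 737 and 874 in TSA, and changed by -1.21 (standard error 0.18, adjusted p = 0.0077). Hmgcs1, the synthase that makes HMG-CoA, was among the brightest genes, at 6688 and 6408 in the controls and 6084 and 6271 in TSA at 6 h and 5708, 5819, 4366 and 6042 in the controls and 3217, 3235, 3308 and 3129 in TSA at 24 h, and changed by -0.67 (standard error 0.15, adjusted p = 0.0243). In all 4 genes the TSA arrays of 24 h were below every control, and no effect was called at 6 h. Lss, lanosterol synthase, and Pmvk, a kinase of the mevalonate pathway, had changes of -1.47 and -1.08. Hsd17b7 had the lowest change of the list, -1.58, which missed the threshold. Of the regulators of the pathway, Srebf2 had effects of -0.13 at 6 h and -0.32 at 24 h and Srebf1 of 0.45 and 0.41, with no called change.

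The promoter of Hmgcs1 is shown because it was the one of the 6 delayed genes of this list in which the letters TCACNCCAC, a form of the sterol regulatory element, were found on either strand. The sequences were taken from the RefSeq promoter table of GRCm38.p6, which runs from 250 bases before to 50 bases after each start, and all 6 genes had an entry. Capitals mark the match. Hmgcs1 lies at chr13:119690101-119690400 on the + strand.
Hmgcs1: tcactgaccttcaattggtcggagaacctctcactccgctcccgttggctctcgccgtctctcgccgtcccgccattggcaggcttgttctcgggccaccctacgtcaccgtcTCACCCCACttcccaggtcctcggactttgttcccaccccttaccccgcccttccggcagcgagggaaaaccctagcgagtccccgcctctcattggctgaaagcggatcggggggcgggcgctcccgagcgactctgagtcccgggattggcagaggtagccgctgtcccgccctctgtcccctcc
The same letters were found for 1.44% of the 27025 genes with a promoter in the table. A match describes the letters only.

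**Figure D3:**
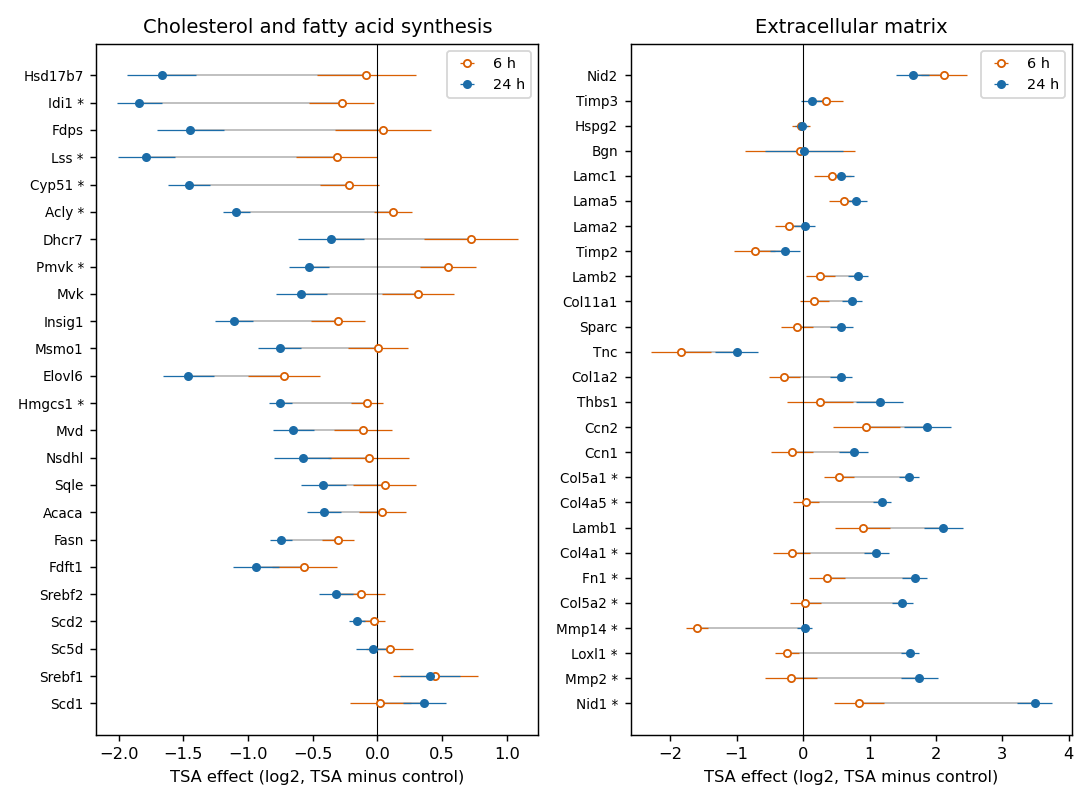
TSA effects at 6 h (open orange circles) and at 24 h (filled blue circles), in log2 with bars of 1 standard error (x axis), for the tested members of 2 lists (y axis), ordered by the change, with a star where the change was called. At 6 h the 24 lipid synthesis genes scatter around 0 and at 24 h 16 are called lower, while 19 of 26 matrix genes are called higher at 24 h.

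Delayed falls outside lipid synthesis included a myelin gene and transporters. Mog, the myelin oligodendrocyte glycoprotein, was dim at 6 h, at 16.8 and 87.3 in the controls and 3.27 and 24.9 in TSA. At 24 h it was at 962, 264, 429 and 545 in the controls and at 33.3, 26.8, 3.55 and 3.21 in TSA. The change was -2.73 (standard error 0.67, adjusted p = 0.0322), and from 6 to 24 h the log2 mean of the controls moved by 2.79 and that of TSA by 0.06. In controls 5 and 6 it was too dim for the comparison to be fitted, and without control 24 h array 3 or 4 or either TSA array or control array 1 of 6 h the change was not called. Slc1a1, a neuronal glutamate transporter, was at 1612 and 1630.2 in the controls and 805 and 926 in TSA at 6 h, and at 1023, 1875, 1648 and 1367 in the controls and 149, 254, 63.5 and 139.5 in TSA at 24 h, with a change of -2.23 (standard error 0.49, adjusted p = 0.0218). Here the TSA arrays moved, by -2.39, and the controls by -0.16. Ypel2 read 204 and 645 in the controls and 559 and 914 in TSA at 6 h, and 1178, 649, 988 and 851 in the controls and 263, 243, 220.2 and 215 in TSA at 24 h. Its change was -2.70 (standard error 0.50, adjusted p = 0.0123), and -0.97 with no call against controls 5 and 6, where it read 305 and 199.5. Cdc42ep2, an effector of the GTPase Cdc42, had 6 h controls of 32.3 and 149 and TSA arrays of 74.2 and 145, and 332, 161, 329 and 248 against 26.6, 16.8, 39.3 and 44.6 at 24 h. The change was -2.55 (standard error 0.56, adjusted p = 0.0215), and it was lost, at -0.59, against controls 5 and 6. From 6 to 24 h the log2 mean of Cdc42ep2 moved by 1.43 in the controls and by -1.12 in TSA.

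Reversing genes crossed the level of the controls. Piga, which starts the synthesis of GPI anchors, was at 117 and 135 in the controls and 393 and 408 in TSA at 6 h. At 24 h the controls were at 289, 208, 275 and 249.8 and the TSA arrays at 181, 136, 157 and 172, so that TSA lay above both controls of 6 h and below all 4 of 24 h. The effect went from 1.46 to -0.57, a change of -2.02 (standard error 0.21, adjusted p = 0.00226). Mast3, a microtubule-associated kinase, read 227 and 353 in the controls and 662 and 789.6 in TSA at 6 h and 220.5, 217, 284 and 237 in the controls and 128, 113, 152 and 120.2 in TSA at 24 h, a change of -2.02 (standard error 0.25, adjusted p = 0.00356). Mxd1, a partner of Max that opposes Myc, read 293 and 293 in the controls and 597 and 705 in TSA, then 291, 296, 247 and 183 in the controls and 164, 158, 99.7 and 126 in TSA, a change of -1.82 (standard error 0.28, adjusted p = 0.0081). In Ankrd13a, a ubiquitin-binding protein, the effect went from 1.09 to -0.72. The kinase inhibitor p57, encoded by Cdkn1c, showed the same order, at 205 and 179 in the controls and 400.1 and 366 in TSA at 6 h and 217, 163, 219 and 219 in the controls and 114, 130.3, 162 and 152 in TSA at 24 h, a change of -1.35 (standard error 0.22, adjusted p = 0.00841). Of 7 tested kinase inhibitors it was the 1 with a called change, near the 10.4% of all genes. With the block 2 of the 7 had a downward change. Cdkn1a, the inhibitor p21, had effects of 1.72 and 1.05.

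The opposite order, lower at 6 h and higher at 24 h, was found for Wnt ligands and for growth factor signalling. Wnt7b was at 693 and 865 in the controls and 329 and 353 in TSA at 6 h and at 736, 500.2, 472 and 726 in the controls and 1277, 1123, 799.5 and 1266 in TSA at 24 h, with no overlap at either time. Its effect changed by 1.96 (standard error 0.32, adjusted p = 0.00838). Wnt5a, a ligand of non-canonical Wnt signalling, read 239 and 372 in the controls and 132 and 144 in TSA, then 406, 244, 289 and 314 in the controls and 711, 731, 875 and 439.5 in TSA, a change of 2.00 (standard error 0.37, adjusted p = 0.0116). Of its 3 tested probe sets, this was the only 1 with a called change. Wnt7a was lower at 6 h, at 245 and 264 against 547 and 662, and overlapped at 24 h, a transient fall with a change of 1.37 (standard error 0.25, adjusted p = 0.0125). Dkk3 and Sfrp2, secreted proteins of the Wnt list, rose late, with changes of 1.23 and 1.28. Together 5 of 28 tested genes of the Wnt pathway had a called upward change and 0 a downward one, beside 4.79% of all genes upward, and the median change of the list was 0.17. The counts were 8 upward with the block, 4 upward and 3 downward against controls 5 and 6, and 0 without TSA 6 h array 2.

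Some feedback genes of FGF and ERK signalling had upward changes as well. Of 15 tested members, 5 were lower and 0 higher at 6 h, and 6 were higher and 2 lower at 24 h, beside 12.6% of all genes lower at 6 h and 17.5% higher at 24 h. At 24 h 3 were higher and 1 lower against controls 5 and 6. The change was called upward in 5 and downward in 0, beside 4.79% upward over all genes, with a median of 0.77. It was called upward in 10 and downward in 1 with the block, and in 0 without TSA 6 h array 2. Spred2, an inhibitor of Ras and Raf signalling, was at 912 and 728 in the controls and 548 and 431 in TSA at 6 h and at 668, 684, 899 and 769 in the controls and 1517, 1439, 1533 and 1131 in TSA at 24 h, a change of 1.58 (standard error 0.24, adjusted p = 0.00772). Egfr, the receptor of EGF, read 1283 and 1169 in the controls and 770.1 and 662 in TSA, then 1511, 799, 971 and 1202 in the controls and 2443, 2435, 2647 and 1833 in TSA, and changed by 1.82 (standard error 0.31, adjusted p = 0.00919), with a called change on all 4 of its tested probe sets. Spry2, an inhibitor induced by FGF, had effects of -0.66 and 0.38, the later one called only with the block and the change not called against controls 5 and 6, and Pdgfra, the PDGF receptor of oligodendrocyte precursors, of -1.99 and -1.01.

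Markers of neural stem cells and radial glia, of which Egfr is also 1, had called changes in the same direction. At 6 h 6 of 16 tested members were lower and 0 higher, beside 12.6% of all genes lower. At 24 h 5 were higher and 0 lower, beside 17.5% of all genes higher. Against controls 5 and 6, 2 were higher and 2 lower at 24 h, and the median effect there was 0.04 in place of 0.39. The change was called upward in 4 and downward in 0, beside 4.79% of all genes upward, with a median of 0.63, in 9 with the block and in 0 without TSA 6 h array 2. Sox1 was at 943 and 925 in the controls and 392 and 293 in TSA at 6 h and at 709.9, 396, 804 and 712 in the controls and 956, 1007, 1331 and 748 in TSA at 24 h, a reversal of 2.00 (standard error 0.38, adjusted p = 0.0129). Sox2 was bright and moved little, from 6307 and 6195 in the controls and 5203 and 4725 in TSA at 6 h to an overlap at 24 h, with a change of 0.32 (standard error 0.08, adjusted p = 0.0411). Notch1, with effects of -0.68 and 0.37, was transient, and reversing with the block. Against controls 5 and 6 the change of Notch1 was 0.37 and not called. Nestin (Nes) had effects of 1.29 and 1.44 and no called change.

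Gbp3, an interferon-induced GTPase, had the largest reversal of all. It was at 92.0 and 148 in the controls and 29.3 and 23.2 in TSA at 6 h and at 365, 197, 126 and 220.2 in the controls and 730.0, 752, 932 and 1184 in TSA at 24 h, so TSA lay below both controls early and above all 4 late. The effect went from -1.36 to 1.90, a change of 3.26 (standard error 0.44, adjusted p = 0.00528). B2m, the light chain of MHC class I, was called at 24 h alone, and at both times with the block. It was at 845, 1212, 1071 and 1194 in the controls and 2934, 3069, 2863 and 3463 in TSA, after 694 and 943 in the controls and 972 and 1192 in TSA at 6 h, a change of 1.10 (standard error 0.24, adjusted p = 0.0205). Of 10 tested MHC class I genes it was the 1 with a called change, near the 10.4% of all genes. With the block 3 of the 10 had an upward change. H2-K1 and H2-D1 had effects of 1.43 and 1.42 at 6 h and of 2.18 and 2.23 at 24 h. The promoters of Gbp3 and B2m are shown because both held GAAANNGAA, a core form of the interferon-stimulated response element, on either strand (capitals). Gbp3 lies at chr3:142559794-142560093 and B2m at chr2:122147437-122147736, both on the + strand of GRCm38.p6. In Gbp3 the 2 matches overlap.
Gbp3: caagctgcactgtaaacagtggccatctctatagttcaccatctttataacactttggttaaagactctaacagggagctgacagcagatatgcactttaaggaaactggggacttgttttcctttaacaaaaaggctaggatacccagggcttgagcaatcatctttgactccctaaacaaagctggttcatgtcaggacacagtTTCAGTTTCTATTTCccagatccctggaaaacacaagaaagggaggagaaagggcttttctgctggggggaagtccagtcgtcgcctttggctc
B2m: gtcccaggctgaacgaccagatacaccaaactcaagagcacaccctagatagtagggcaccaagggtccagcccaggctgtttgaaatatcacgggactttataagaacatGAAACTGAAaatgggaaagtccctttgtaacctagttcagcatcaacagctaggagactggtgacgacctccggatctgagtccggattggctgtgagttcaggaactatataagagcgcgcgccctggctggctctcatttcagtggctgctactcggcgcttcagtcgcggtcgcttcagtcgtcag
These letters were found for 7.77% of the 8468 tested genes with a promoter in the table. They were found for 20 of 141 delayed genes that rose (14.2%), 6 of 30 reversing genes that were higher at 24 h (20%) and 3 of 110 delayed genes that fell (2.73%). Among genes that were transiently lower they were found for 21 of 164 (12.8%). These shares are descriptions, and a match is not a binding site.

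Spsb4, a substrate adaptor of a ubiquitin ligase, reversed in the same order, at 438 and 353 in the controls and 194 and 166 in TSA at 6 h and 298, 229, 245 and 362 in the controls and 518, 496, 696 and 517 in TSA at 24 h, a change of 1.91 (standard error 0.27, adjusted p = 0.00528).

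Among the sustained genes, the Hsp70 pair Hspa1b and Hspa1a had smaller effects at 24 h. Hspa1b and Hspa1a encode the inducible chaperone Hsp70. Hspa1b was at 173 and 175 in the controls and 1321 and 1829 in TSA at 6 h, and at 243, 278, 226 and 224 in the controls and 413, 383, 706 and 499.8 in TSA at 24 h. TSA stayed above all controls at both times, and the effect went from 2.95 to 0.92, a change of -2.02 (standard error 0.30, adjusted p = 0.00742). Hspa1a read 36.5 and 35.9 in the controls and 337 and 516 in TSA, then 32.8, 60.7, 52.9 and 46.8 in the controls and 97.7, 101, 141 and 115 in TSA, a change of -1.86 (standard error 0.28, adjusted p = 0.00759). The genes are near-identical copies, so their probe sets may share signal. Of 19 tested heat shock chaperones, these were the 2 with a called change, both downward, beside 5.59% of all genes. The other sustained members, Hspa4l, with effects of 0.76 and 0.70, and Bag3, with 0.94 and 0.99, had no called change. Neither the constitutive Hspa8, at -0.01 and -0.08, nor Hsp90aa1, at -0.01 and -0.13, had a called effect. The promoter of Hspa1b, at chr17:34959189-34959488 on the - strand of GRCm38.p6, is shown for the letters GAANNTTC (capitals), a pair of facing units of the heat shock element.
Hspa1b: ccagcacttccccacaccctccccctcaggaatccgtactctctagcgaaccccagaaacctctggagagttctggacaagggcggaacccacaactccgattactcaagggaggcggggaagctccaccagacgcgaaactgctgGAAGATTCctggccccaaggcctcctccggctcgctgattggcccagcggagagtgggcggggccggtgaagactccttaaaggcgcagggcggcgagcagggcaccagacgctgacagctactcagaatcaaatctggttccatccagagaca
The promoter of Hspa1a holds the same match and is identical at 296 of 300 positions. The letters were found for 6.81% of the tested genes with a promoter in the table.

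Other sustained effects also shrank. Reep6, a protein of the endoplasmic reticulum, read 35.5 and 39.5 in the controls and 446 and 468 in TSA at 6 h and 29.2, 30.1, 21.8 and 35.2 in the controls and 124, 45.9, 92.6 and 167 in TSA at 24 h, a change of -1.70 (standard error 0.40, adjusted p = 0.0278). Among the lower genes, Gtf2i, the transcription factor TFII-I, went from 3044 and 2948 against 738 and 608 in TSA to 3311, 3169, 3005 and 2921 against 1728, 2338, 1535 and 1600.1, a change of 1.32 (standard error 0.21, adjusted p = 0.00838). Cdh11, a cadherin, had effects of -2.11 and -0.62. Lrrc4b, a synaptic adhesion protein, had -2.01 and -0.64, and here the controls moved more, by -2.01 against -0.63 in TSA, from 1309.8 and 1297 to 241, 253, 335 and 391.

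Effects that grew were few. H2-Ab1, a chain of MHC class II, was under 12 on all 6 controls and at 98.0 and 70.4 in TSA at 6 h and 314, 200.4, 451 and 484 at 24 h, a change of 1.96 (standard error 0.39, adjusted p = 0.016). Thy1, a GPI-anchored surface protein, was at 160.3 and 189.7 at 6 h and 388, 342, 487 and 563 at 24 h in TSA, against 46.2 and 60.1 and 56.4, 51.6, 38.6 and 67.2 in the controls, a change of 1.19 (standard error 0.28, adjusted p = 0.0282). Snhg18, a long non-coding RNA, behaved alike, with effects of 1.22 and 2.52. Phactr3, a regulator of protein phosphatase 1 and actin, fell further, at 274 and 220.3 in TSA at 6 h and 98.9, 162, 81.6 and 115 at 24 h against 460.4 and 496 and 554, 584, 613 and 587, a change of -1.23 (standard error 0.26, adjusted p = 0.0192). Spns2, which exports sphingosine-1-phosphate, had effects of -0.57 and -1.36. The changes of Thy1, Snhg18 and Spns2 were 0.70, 1.18 and -0.59 and not called against controls 5 and 6.

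Strong sustained effects without a called change were those of Zcchc12, Efna3 and Tcfl5 upward and Tmem88b, Prkcq and Nkx2-2 downward. Zcchc12, a zinc finger coactivator, was at 2125 and 1779.9 in TSA at 6 h and 1854, 1691, 2766 and 2977 at 24 h against 213 and 255 and 197, 251, 296 and 292 in the controls, and its change of 0.09 (95% confidence interval -0.63 to 0.81) spanned 0. Tcfl5, a bHLH factor, had effects of 2.79 and 3.70 with a change of 0.91 (95% confidence interval 0.24 to 1.57). Efna3, an ephrin, had 3.39 and 2.85. Nkx2-2, a homeodomain factor of oligodendrocyte precursors, was at 167 and 91.3 in TSA at 6 h and 124, 196, 45.2 and 57.0 at 24 h against 1658 and 1398 and 676, 948, 1096 and 826, with a change of 0.45 (95% confidence interval -0.72 to 1.63). Prkcq, a protein kinase C, had -3.18 and -2.89, and Tmem88b -3.30 and -3.37.

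Chromatin remodelers and histone methylation enzymes were lower more often than higher at both times. Over all genes 12.6% were lower and 15.8% higher at 6 h, and 16.3% lower and 17.5% higher at 24 h. Of 37 tested remodelers and corepressors, 14 were lower and 1 higher at 6 h and 10 lower and 3 higher at 24 h. The change was called upward in 4 and downward in 0, beside 4.79% and 5.59% of all genes. It was called upward in 2 and downward in 3 against controls 5 and 6. Smarca4, the ATPase Brg1 of the BAF complex, was at 2141 and 1802 in the controls and 812 and 767 in TSA at 6 h and at 1461, 1394, 1298 and 1413 in the controls and 1089, 1008, 941 and 1094 in TSA at 24 h, a change of 0.86 (standard error 0.15, adjusted p = 0.0104). The BAF subunit Arid1a changed by 1.03 (standard error 0.19, adjusted p = 0.0116). Its relative Arid1b changed by 0.81 (standard error 0.23, adjusted p = 0.0471). From 6 to 24 h the controls of Smarca4 and Arid1b moved more, by -0.49 and -0.55 against 0.37 and 0.26 in TSA. Bptf, the large subunit of the NURF remodeler, changed by 0.71 (standard error 0.18, adjusted p = 0.0343). The changes of Smarca4, Arid1b and Bptf were not called against controls 5 and 6. Kmt5b, which places methyl groups on lysine 20 of histone H4, was at 90.9 and 85.0 in TSA at 6 h and 287, 405, 269.7 and 230.2 at 24 h, against 761 and 739 and 901, 751, 876 and 803, a change of 1.29 (standard error 0.25, adjusted p = 0.0135). Its relative Kmt5a went the other way, with effects of 0.14 and -0.67, and the demethylase Kdm4b reversed, from 0.62 to -0.47. The histone variant Macroh2a2 had effects of -3.13 and -1.93, the acetyltransferase Kat6b of -1.27 and -0.38, and the methyltransferase Nsd1 of -1.38 and -0.27, all with called upward changes. Those of Kat6b, Kmt5a and Nsd1 were not called against controls 5 and 6. Of 36 tested histone methyltransferases and demethylases, 10 were lower and 2 higher at 6 h and 10 lower and 1 higher at 24 h. Of these 36, 2 had a called upward change and 2 a downward one, near the shares of all genes. At 6 h, of 10 tested linker and variant histones 3 were higher and 1 lower. Of 22 polycomb subunits 3 were higher and 2 lower, near the 15.8% and 12.6% of all genes. The polycomb subunit Bmi1 changed by 0.62 (standard error 0.17, adjusted p = 0.0429). Phf1, a polycomb-associated protein, changed by -1.14 (standard error 0.29, adjusted p = 0.0343).

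Among the 11 zinc-dependent histone deacetylases, Hdac1 was the only 1 with a called change, beside 10.4% of all genes. It was at 1853 and 1709 in the controls and 3409 and 3164 in TSA at 6 h, and at 1626, 1932, 1988 and 1873 in the controls and 1936, 1672, 1910.5 and 2462 in TSA at 24 h, where the groups overlapped, a transient rise with a change of -0.78 (standard error 0.19, adjusted p = 0.0322). It was -0.69 and not called against controls 5 and 6. Of all genes 15.8% were higher and 12.6% lower at 6 h, and 17.5% higher and 16.3% lower at 24 h. In the list, 5 were higher and 1 lower at 6 h and 2 higher and 1 lower at 24 h. Downward changes were called in 3 with the block, in 3 after median scaling and in 3 against controls 5 and 6. Hdac11 and Hdac6 had effects of 1.37 and 1.18 at 6 h and of 0.80 and 0.59 at 24 h.

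Cell cycle genes had few called changes. Ccnd1 was the only 1 of 43 tested with one, beside 10.4% of all genes, in a list with 3 higher and 2 lower at 6 h and 4 higher and 9 lower at 24 h. The shares over all genes were 15.8% higher and 12.6% lower at 6 h, and 17.5% higher and 16.3% lower at 24 h. Of 22 tested p53 targets and Bcl2 family members, 10 were higher and 2 lower at 6 h and 11 higher and 0 lower at 24 h. A called change was found in 4 of the 22. Bak1, a pore-forming executor of apoptosis, was at 347 and 314 in the controls and 83.4 and 81.9 in TSA at 6 h, and at 161, 145, 133 and 171 in the controls and 118, 124, 98.5 and 129 in TSA at 24 h, a change of 1.35 (standard error 0.19, adjusted p = 0.00528). Bad, a BH3-only protein, changed the other way, by -1.11 (standard error 0.17, adjusted p = 0.0081). From 6 to 24 h the controls of Bak1 moved more, by -0.98 against 0.38 in TSA. Sesn2, a stress-induced sestrin, had effects of 1.04 and 0.33, and Gadd45g, a growth arrest gene, of -0.60 and 0.67. The p53 target Pmaip1, which encodes Noxa, was sustained at 2.16 and 1.92. The 18 tested immediate early genes had 0 called changes in limma and 4 at an unadjusted p under 0.05, with 5 higher and 1 lower at 6 h and 4 higher and 3 lower at 24 h. With the block 2 were called upward and 2 downward.

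Oligodendrocyte genes were called lower at 24 h in most cases and at 6 h in fewer. Of 17 tested premyelinating genes, 6 were lower at 6 h and 15 at 24 h, beside 12.6% and 16.3% of all genes. The median effects of the 17 were -1.40 and -2.21. With the block 11 were lower at 6 h and 16 at 24 h, and 2 had an upward and 2 a downward change. Effects at 6 h rest on fewer arrays and had larger errors, so these counts alone do not compare the times. Without the block only Pdgfra had a called change, upward, by 0.98 (standard error 0.28, adjusted p = 0.0491). It was at 832 and 515 in TSA at 6 h and 1367, 1185, 982 and 1511 at 24 h, against 2627 and 2764 and 3004, 2464, 2427 and 2315 in the controls, and its change was not called against controls 5 and 6. Gpr17, a receptor of differentiating oligodendrocytes, was at 4258 and 4120.4 in the controls and 799 and 448 in TSA at 6 h and at 4383, 4738, 5096 and 4315 in the controls and 247, 751, 44.6 and 66.4 in TSA at 24 h, with a change of -1.79 (95% confidence interval -3.94 to 0.37). TSA arrays 2 and 1 were the highest of the 4 at 24 h. The same array 2 was the highest for Bcas1, Bmp4, Enpp6, Lims2 and Myrf, whose changes lay between -1.57 and -0.86 and were not called. Of 13 tested structural myelin genes, 2 were lower at 6 h and 12 at 24 h, and the median change was -1.64. It was called for 1, Mog, and had an unadjusted p under 0.05 in 6. The block gave 6. Against controls 5 and 6, of 12 tested members 2 were lower and 1 higher at 24 h, and the median change was 0.10. The 11 tested transcription factors of the lineage had 5 and 7 lower genes and 0 called changes in limma, with 1 at an unadjusted p under 0.05, and the block called 1 upward and 1 downward.

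Genes of neurons, astrocytes and the Notch and BMP pathways changed one by one. Of 22 tested astrocyte markers, 7 were lower at 6 h and 5 at 24 h, beside 12.6% and 16.3% of all genes. A called upward change was found in 3, beside 4.79% of all genes. The count was 10 with the block, 5 against controls 5 and 6 and 0 without TSA 6 h array 2. Nfib, a transcription factor of gliogenesis, was at 1646 and 1639 in the controls and 878 and 651 in TSA at 6 h, and at 1311, 1076, 1242 and 1379 in the controls and 1053, 1513, 1819.6 and 1950.1 in TSA at 24 h, a change of 1.39 (standard error 0.30, adjusted p = 0.0215). Its relative Nfia changed by 0.81 (standard error 0.19, adjusted p = 0.0263). Gja1, connexin 43, changed by 0.75 (standard error 0.21, adjusted p = 0.0471). The change was called on 2 of 6 tested probe sets of Nfib, on 1 of 4 of Nfia and on 3 of 6 of Gja1. Of 18 tested neuronal markers, Nrcam, an adhesion molecule, reversed by 0.90 (standard error 0.20, adjusted p = 0.0235), and Stmn4, a stathmin, fell late by -1.55 (standard error 0.42, adjusted p = 0.0436), where the log2 mean of the controls moved by 0.97 and that of TSA by -0.58. Against controls 5 and 6 the change of Stmn4 was 0.09, and those of Nfib and Nrcam were not called. Of 20 tested synaptic genes, Rab3b, a vesicle GTPase, rose late, to 565, 208, 353 and 893 in TSA against 24.9, 30.9, 48.5 and 64.2, a change of 2.06 (standard error 0.58, adjusted p = 0.0493), while Rab3a fell late, by -1.03 (standard error 0.27, adjusted p = 0.0387), and Cplx2, a complexin, fell transiently, with a change of 0.89 (standard error 0.25, adjusted p = 0.0482). None of these 3 changes was called against controls 5 and 6. From 6 to 24 h the log2 mean of Cplx2 moved by -0.67 in the controls and by 0.23 in TSA.

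In the BMP pathway 3 of 21 tested genes had a called upward change and 0 a downward one, beside 4.79% and 5.59% of all genes. With the block 6 of the 21 had an upward change. The receptors Bmpr1a and Bmpr1b were transiently lower. Bmpr1b was at 928 and 704 in the controls and 255 and 226 in TSA at 6 h, and overlapped the controls at 24 h, at 568, 1147, 952 and 588 against 722, 994, 801 and 777. Its change was 1.56 (standard error 0.37, adjusted p = 0.0271), not called against controls 5 and 6. The change of Bmpr1a was 0.78 (standard error 0.17, adjusted p = 0.0226). Bmper, a secreted BMP modulator, rose late, from 364 and 592 in the controls and 339.5 and 477 in TSA at 6 h to 715, 416, 474 and 462 in the controls and 1816, 1037, 1512 and 1514 in TSA at 24 h, a change of 1.65 (standard error 0.38, adjusted p = 0.0249). The BMP targets Id1 and Id2 had changes of 0.16 (95% confidence interval -0.88 to 1.19) and 0.00 (95% confidence interval -0.87 to 0.87), intervals that span 0. In the Notch pathway 3 of 21 were called upward and 0 downward, beside the same shares of all genes. These 3 were Notch1, the glycosyltransferase Lfng, with a change of 1.79 (standard error 0.48, adjusted p = 0.0415), and Hes6, an antagonist of Hes1, with 1.05 (standard error 0.24, adjusted p = 0.0247). The list held 8 upward and 2 downward changes with the block. The change of Hes6 was 0.14 and not called against controls 5 and 6. From 6 to 24 h the log2 mean of Hes6 moved by -0.65 in the controls and by 0.40 in TSA.

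Among redox genes, the effects of Nqo1, a quinone reductase, and Txn1, thioredoxin, rose late. Nqo1 was at 51.2 and 78.1 in TSA at 6 h and 258, 252, 195 and 258 at 24 h, against 39.2 and 62.8 and 101, 70.6, 52.5 and 69.1 in the controls, a change of 1.17 (standard error 0.29, adjusted p = 0.0334), not called against controls 5 and 6. Txn1 changed by 0.62 (standard error 0.16, adjusted p = 0.0399), and by 0.13 with no call against controls 5 and 6. From 6 to 24 h the log2 mean of its controls moved by -0.37 and that of TSA by 0.25. Txnip, the inhibitor of thioredoxin, had effects of 2.54 and 1.39, with a change of -1.15 (95% confidence interval -2.18 to -0.12), which was called with the block (adjusted p = 0.0283, limma). Lysosomal genes were higher at 24 h in 14 of 23 tested members and at 6 h in 4, beside 17.5% and 15.8% of all genes. The change was called in 1 of the 23, beside 10.4% of all genes. This was a transient rise of the sialidase Neu1, with a change of -1.08 (standard error 0.24, adjusted p = 0.0215). Stat3, a signal transducer of astrocyte formation, had effects of 0.75 and 0.64, and the 12 tested genes of the LIF receptor, JAK and STAT list had 0 called changes in limma, with 3 at an unadjusted p under 0.05 and 2 upward and 0 downward with the block.

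**Figure D4:**
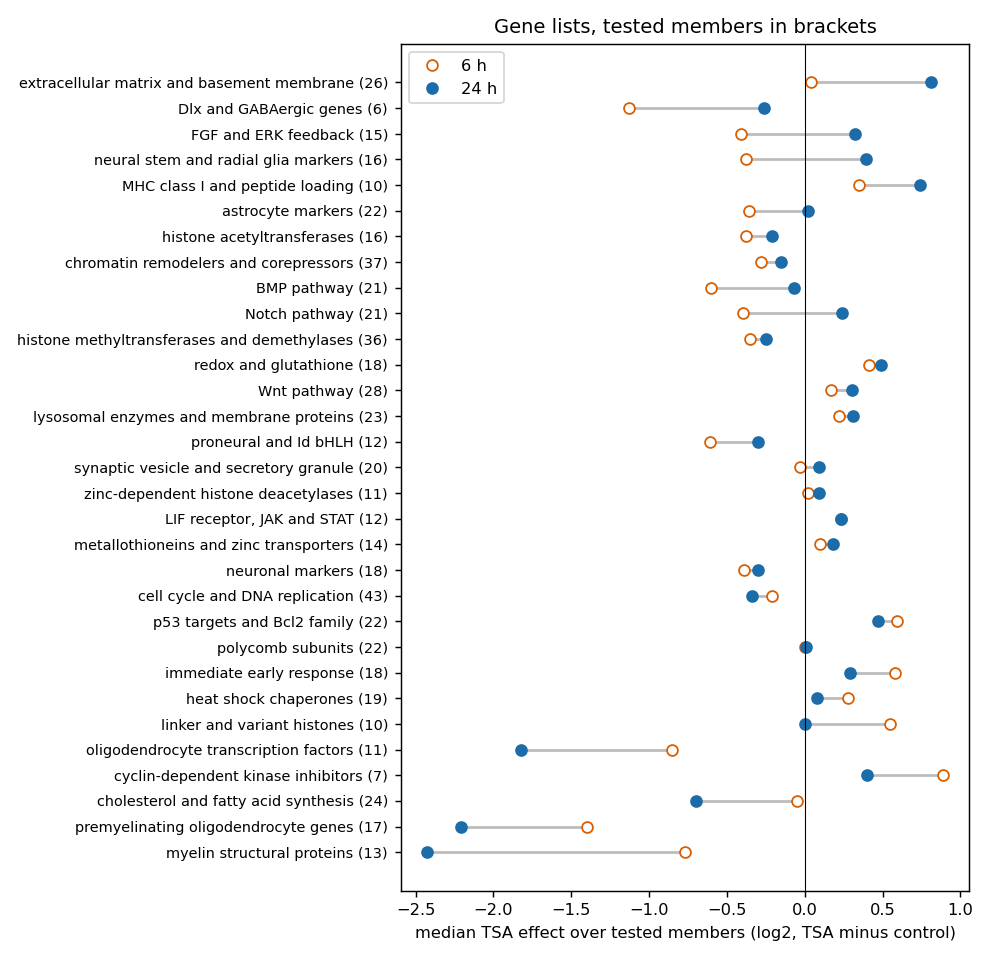
Median TSA effect over the tested members of each gene list at 6 h (open orange circles) and at 24 h (filled blue circles), in log2 of TSA minus control (x axis), for the 31 lists with at least 6 tested members (y axis). The matrix list and the 6 Dlx and GABAergic genes have the highest median change, 0.88, and the myelin list the lowest, -1.64, and the stem cell, FGF and Notch lists pass from below 0 to above it.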

How the data were processed

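RNA of the cultures was hybridised to Affymetrix Mouse Genome 430 2.0 arrays. The deposited values are linear intensities per probe set, which the authors made with MAS5 per the labels and with dChip normalization per their methods, so which of these set the scale is not settled. The array medians differed little, and the number of arrays limits the precision. Probe sets were named through the platform annotation: 34958 had 1 gene, 932 several and 9211 none. All 18 arrays were quantile-normalized, 32 was added and log2 was taken. Probe sets whose mean reached 100 in any of the groups were fitted over the 12 arrays in 4 groups with limma 3.58.1 in R 4.3.3 (moderated with a trend, 8 residual degrees of freedom), with Benjamini-Hochberg adjustment within each comparison. The fit was tested on simulated data.

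Equally numbered TSA and control arrays of a time deviated together from their group means (r from 0.47 to 0.62 in 6 pairs, 6 of 6 best with their own number), so the replicate number was also fitted as a block. With 2 arrays a group at 6 h, the 2 pairs of that time mirror each other, both at 0.57, and count as 1 observation. Genes were named by rule: in each pattern and direction those with the largest change, in each list up to 4 with the smallest adjusted p, and genes the study names. Named genes had TSA arrays clear of the controls wherever a called effect chose them by size. Of the genes the study names, Ccn4 and Bmp2 were too dim to test. The members, lists and tests were chosen with earlier results of these data known. Promoters came from RefSeq (GRCm38.p6), and 8468 of 10337 tested genes had one. The BMP2 arrays were not used here.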

Additional observations from a re-analysis of the deposited data

Results flagged for a closer look

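Among 109 named genes, 13 of 218 groups of 4 arrays held 1 array far from the other 3 by Dixon's criterion, about the 1 in 20 that chance gives. TSA 24 h array 2 was high for Bmp4 (283, the others 64.9 to 98.0), Enpp6 (142, the others 25.2 to 37.7) and Bmpr1a (2745, the others 2297 to 2343). TSA 24 h array 3 was low for Id2 (1327, the others 2781 to 3032) and Nqo1 (195, the others 252 to 258). It was high for Ier3 (395, the others 142 to 169), Kmt5a (773, the others 529 to 565) and Spsb4 (696, the others 496 to 518). Control 24 h array 2 was low for Cdkn1c (163, the others 217 to 219) and high for Id2 (4862, the others 4012 to 4082) and Pmaip1 (94.8, the others 61.0 to 66.5). Control 24 h array 1 was low for Kdm4b (259, the others 313 to 322), and control 24 h array 4 was high for H2-Ab1 (7.94, the others 1.00 to 1.49).

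The effects at 6 h and 24 h differed in sign, with a called change, for Piga (-2.02), Mast3 (-2.02), Mxd1 (-1.82) and Ankrd13a (-1.81), which were higher in TSA first, and for Gbp3 (3.26), Wnt5a (2.00), Wnt7b (1.96) and Spsb4 (1.91), which were lower first.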

How the results depend on the processing

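The number of arrays at 6 h was the main limit. Without 1 array at a time, called probe sets ranged from 1690 to 5123 at 6 h, from 4537 to 6187 at 24 h and from 28 to 1730 for the change, and the patterns from 11 to 899 (transient), 10 to 637 (delayed), 927 to 2548 (sustained) and 19 to 144 (reversing). The lowest count came without TSA 6 h array 2, except at 24 h, where it came without control 24 h array 3. With the replicate block 7720, 8641 and 4739 probe sets were called at 6 h, at 24 h and for the change, and 1907 were transient, 1485 delayed, 3775 sustained and 541 reversing. Among named genes it added 13 calls at 6 h, 9 at 24 h and 2 of the change (Txnip and Fst), and ended 0. Without the filter on dim probe sets there were 776 changes, 382 transient, 280 delayed and 51 reversing. Against controls 5 and 6 there were 2875 changes, 1612 delayed and 251 reversing, 28 of 108 named genes lost the call of the change (or of the 24 h effect, where no change was called: Bambi, Fst, Id2 and Smad7), and the change of Stmn4 turned to 0.086 (adjusted p = 0.915, limma). With 1 probe set per gene 3668 were called at 24 h. The 24 h arrays 1 and 2 alone, chosen after seeing the data, gave 2499 at 24 h, 294 delayed and 1117 sustained, and arrays 3 and 4 alone 7587 at 6 h and 204 reversing. By the called effects alone, with no test of the change, 2425 were transient and 3482 delayed. With an absolute log2 of at least 1 asked in addition, 279 were transient, 209 delayed, 455 sustained and 2 reversing. The cause of these differences was not tested, beyond the fewer or more arrays and probe sets that each setting holds. Other scalings and pseudocounts kept the direction of all 1654 changes, which does not test these changes, since they were chosen on the same arrays.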

Other observations

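Interferon-induced genes and MHC class II genes formed a group that none of the lists above covered. The list of 40 genes was written after values of some of them had been seen, so its counts are a description. Of all genes 15.8% were higher at 6 h, 17.5% were higher at 24 h and 4.79% had a called upward change. Of 19 tested members, 2 were higher and 1 lower at 6 h, with a median effect of 0.12. At 24 h 15 were higher and 0 lower, with a median of 1.22. The change was called upward in 8, among them Usp18, which removes the ubiquitin-like ISG15 (1.99), Ifit2, an inhibitor of viral translation (1.90), Lgals3bp, a secreted glycoprotein (1.69), and Ifi27 (1.47), beside Gbp3, Rtp4, Trim25 and H2-Ab1. Bst2, which tethers virus particles, had a change of 2.40 that missed the threshold (adjusted p = 0.0588, limma). The count was 11 with the block, 11 against controls 5 and 6, and 0 without TSA 6 h array 2.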
